A study of Mus musculus with 20 samples.

Results

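Epithelial keratins were followed as 7 genes, Krt7, Krt8, Krt18, Krt19, Krt20, Krt23 and Krt80, out of 25034 named genes on the array. They were chosen by name, with earlier results of these data known. Each probe named as any of them through its RefSeq accession, symbol or synonym was taken, which gave 10 of the 56605 probes. Keratins build the intermediate filaments of epithelial cells. A filament forms from pairs of one type II and one type I chain, and an unpaired chain is unstable. In simple epithelia such as that of the gut, the main pair is keratin 8 with keratin 18, to which keratins 7, 19 and 20 add in a pattern that differs along the crypt-villus axis, and desmosomes and plakin proteins tie the filaments to the cell border.

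RNA from the intestine of C57BL6/j mice was hybridised to 1-colour Agilent arrays, 1 array per sample, in 4 groups. The 6 Cre control mice carried VillinCreER, a tamoxifen-inducible Cre that the Villin promoter restricts to gut epithelium. The 6 BRAFV600E mice carried the same Cre and in addition 1 copy of BrafV600E-LSL, a knock-in allele of the mutant kinase that Cre switches on. Both groups were young adults of both sexes, received tamoxifen and were examined within days, and their comparison asks what the mutant kinase changes. The 4 MEKi mice received PD184352, an inhibitor of MEK, the kinase that BRAF activates, and the 4 Vehicle mice received the carrier. Their genotype is not in the labels; by the study's text both groups had the mutant allele switched on with tamoxifen, so that their comparison asks which changes need MEK. Whole tissue was used, so non-epithelial cells, in which Cre does not switch the allele on, are part of each sample. Fewer cells of a type and less RNA per cell cannot be told apart.

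Levels are log2 of the processed intensity minus the 75th percentile of the array, so that 0 is the level of the probe at that percentile, and differences are between group means of such levels. Between 60.8% and 76.8% of spots per array were well above background and 0 spots were saturated. The 6 Cre control arrays shared slide 1 with BRAFV600E replicates 1 and 2, while BRAFV600E replicates 3 to 6 were on slide 2. On slide 3 one row held MEKi and the other Vehicle, and the effects of row and drug cannot be told apart. As a check of the labels, Etv4, a target of the MAPK pathway, rose by 2.50 in BRAFV600E (limma adjusted p 1.72e-04) and fell by 2.95 under MEKi (limma adjusted p 0.00329). Dusp6, named for the same check, rose by 0.72 (limma adjusted p 0.00541). Under MEKi it differed by -1.50 and was not called (limma adjusted p 0.0502). Braf, also named for it, was called in neither comparison, at 0.42 and -0.50 (limma adjusted p 0.171 and 0.189). Summed over the 6 epithelial reference genes Epcam, Cdh1, Vil1, Cldn7, Lgals4 and Ezr, the linear level was 481 to 840 across the 20 arrays.

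BRAFV600E replicate 2 and Vehicle replicate 2 stood apart from the other 18 arrays in markers of position along the gut. Cybrd1, an iron reductase of the duodenum, had log2 levels of 6.48 and 6.29 on these arrays against -2.99 to -0.31 elsewhere. Tff2, a trefoil peptide of the stomach and of Brunner's glands, stood at 6.26 and 4.54 against -7.03 to -4.87 elsewhere. Osr2, a transcription factor, was at -7.18 and -4.98 against -0.83 to 3.51. Vehicle replicate 2 also held exocrine pancreas transcripts, with a summed linear level over 8 genes of 2162 against 0.726 to 1.71 on the other 18 arrays and 1.22 on BRAFV600E replicate 2. The difference of each keratin is therefore also given without the array concerned.

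RefSeq promoter windows (GRCm38.p6) were found for 5 of the 7 genes. Krt8 and Krt18, the type II and type I partners, are neighbours on chromosome 15 with 23873 bases between them, and only Krt18 passed the test in BRAFV600E. The windows of both are printed with those of Krt7 and Krt23, which rose most. Each runs from 250 bases before the annotated start, and capitals mark the 20 bases from the start on.

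Krt8 (chr15:102004323-102004592, minus strand): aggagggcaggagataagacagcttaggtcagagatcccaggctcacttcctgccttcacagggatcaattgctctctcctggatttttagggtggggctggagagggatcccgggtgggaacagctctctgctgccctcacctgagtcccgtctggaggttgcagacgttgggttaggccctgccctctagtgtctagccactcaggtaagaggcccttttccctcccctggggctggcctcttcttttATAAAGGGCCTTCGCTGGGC

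Krt18 (chr15:102027966-102028235, plus strand): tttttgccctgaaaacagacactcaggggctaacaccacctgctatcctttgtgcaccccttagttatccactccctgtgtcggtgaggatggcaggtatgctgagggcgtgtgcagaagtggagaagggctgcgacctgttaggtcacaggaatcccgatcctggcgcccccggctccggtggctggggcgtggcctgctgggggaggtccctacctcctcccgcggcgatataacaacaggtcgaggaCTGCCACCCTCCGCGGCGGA

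Krt7 (chr15:101412153-101412422, plus strand): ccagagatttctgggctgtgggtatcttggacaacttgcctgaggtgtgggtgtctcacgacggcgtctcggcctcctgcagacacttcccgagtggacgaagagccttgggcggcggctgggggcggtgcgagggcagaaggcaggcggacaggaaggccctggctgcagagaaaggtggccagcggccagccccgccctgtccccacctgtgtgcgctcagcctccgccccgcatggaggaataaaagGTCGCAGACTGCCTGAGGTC

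Krt23 (chr11:99493101-99493370, minus strand): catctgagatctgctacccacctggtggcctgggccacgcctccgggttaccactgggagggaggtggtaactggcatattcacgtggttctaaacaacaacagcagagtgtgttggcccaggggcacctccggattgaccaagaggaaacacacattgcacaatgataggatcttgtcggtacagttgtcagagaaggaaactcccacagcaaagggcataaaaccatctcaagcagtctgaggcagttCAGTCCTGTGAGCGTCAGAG

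The 300-base windows of the 5 genes were searched on both strands, 50 of these bases lying from the start on. None of the 5 held the AP-1 letters TGANTCA, which 7.93% of 27025 RefSeq promoters held, or the ETS letters CCGGAAG, which 9.12% held. The CDX letters TTTATNG, held by 11.3%, occurred only in Krt20, on the minus strand at -30 from the start. TATAAA, held by 14.2%, occurred in Krt20 at -29, where it overlaps the CDX match, and in Krt8 at -1, where the reverse complement at -3 overlaps it. Absence of a match says only that these letters are not in the window.

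In BRAFV600E, Krt7, Krt18, Krt19 and Krt23 rose, by 1.83- to 3.42-fold, and Krt8, Krt20 and Krt80 did not pass the test. Thus 4 of 7 keratins were called higher and 0 lower, where 12.5% of the 19041 genes tested were called, 6.19% higher and 6.27% lower. Since the keratins were chosen with earlier results of these data known, these shares are set side by side as a description. In the same 4 genes all BRAFV600E arrays lay above all Cre control arrays, which held for 4.19% of genes tested. The median difference of the 7 keratins was 0.87 on the log2 scale, against -0.02 over all genes. All 7 were well above background on all 20 arrays with the probe used, so none was lost to the filter.

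**Figure D1:**
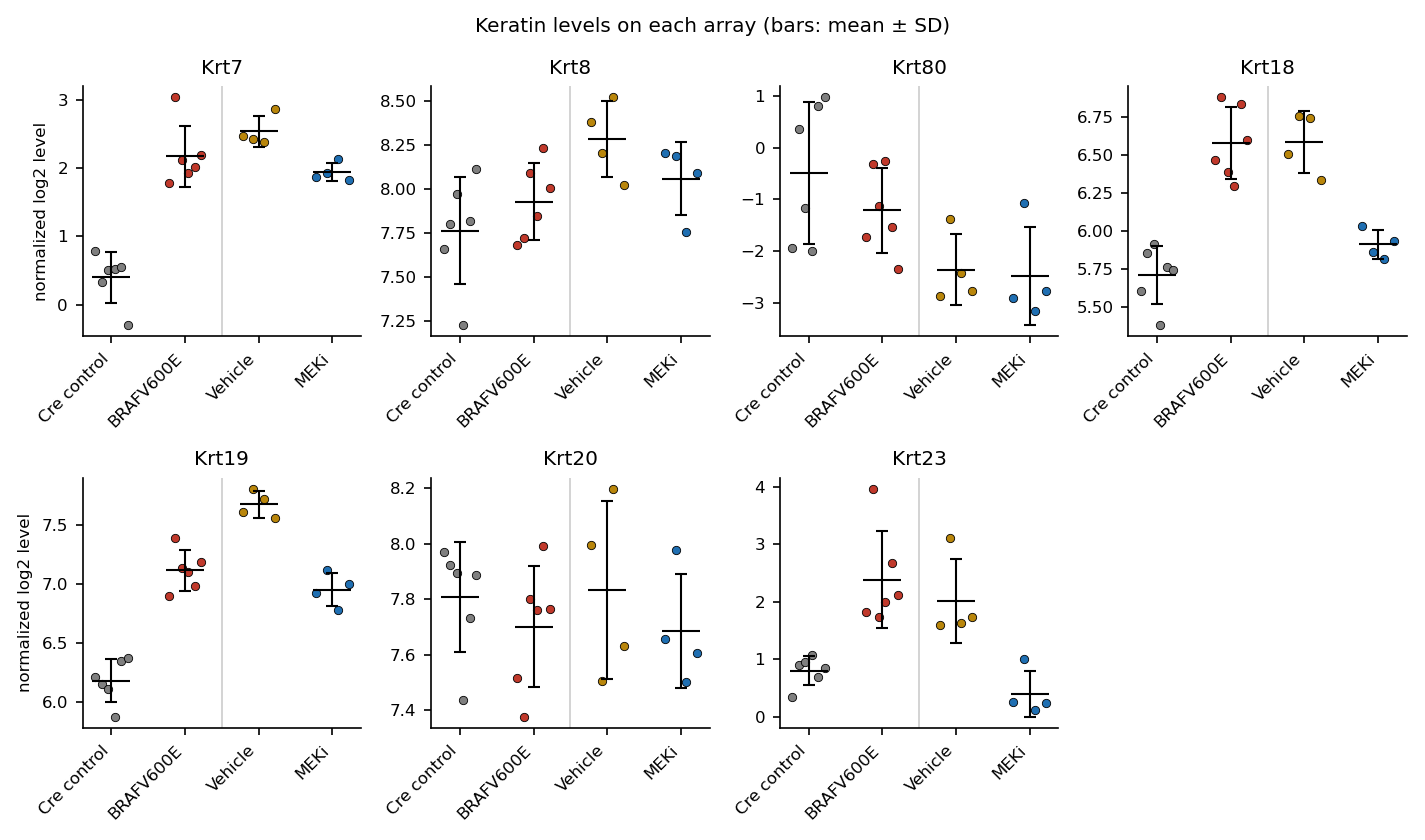
Normalized log2 level (vertical axes, 1 scale per panel) of each keratin on each of the 20 arrays, by group, with horizontal bars for the mean and whiskers for the SD. BRAFV600E points sit above all Cre control points for Krt7, Krt18, Krt19 and Krt23, MEKi points sit below all Vehicle points for the same genes, and the groups overlap for Krt8, Krt20 and Krt80.

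Of the type II keratins, Krt7, a keratin of ducts and other simple epithelia, changed most. Its log2 level ranged from -0.30 to 0.79 in Cre control with a median of 0.51, and from 1.78 to 3.03 in BRAFV600E with a median of 2.06. The lowest BRAFV600E array lay above the highest Cre control array by more than the SD of either group. Means were 0.40 ± 0.37 and 2.17 ± 0.44 (SD, n = 6 each), a difference of 1.77 (SE 0.23, 95% confidence interval 1.28 to 2.27, limma adjusted p 6.68e-04). The highest value came from BRAFV600E replicate 2. Without it the BRAFV600E mean was 2.0 ± 0.16 and the difference 1.60 (SE 0.18, limma adjusted p 5.18e-04).

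Krt8, the main type II keratin of simple epithelia, spanned 7.23 to 8.11 (median 7.81) in Cre control and 7.68 to 8.23 (median 7.92) in BRAFV600E. The groups overlapped. The difference was 0.17 (SE 0.16, 95% confidence interval -0.19 to 0.52, limma adjusted p 0.534), and the second Krt8 probe gave 0.07. Without BRAFV600E replicate 2 it was 0.21 (limma adjusted p 0.472). The call depended on the scaling. Quantile normalization gave 0.61 (limma adjusted p 0.00486). Values without scaling gave 0.98 (limma adjusted p 0.00813), where the median of all genes was 0.79, while centring on the epithelial reference genes gave -0.01.

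Krt80, a type II keratin of many epithelia, had the widest scatter of the 7 in Cre control. Cre control replicates 2, 5 and 6 stood at 0.36, 0.80 and 0.97 and the other 3 between -2.0 and -1.18. BRAFV600E arrays ran from -2.34 to -0.25 with a median of -1.33, inside the Cre control range but for the lowest array. The difference of -0.72 (SE 0.59, 95% confidence interval -1.99 to 0.55, limma adjusted p 0.443) was smaller than this spread, and was -0.90 without BRAFV600E replicate 2 (limma adjusted p 0.376). The other 2 Krt80 probes gave -0.06 and -0.34, the latter being well above background on 1 of 12 arrays.

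Of the type I keratins, Krt18, the partner of keratin 8, ranged from 5.38 to 5.91 (median 5.75) in Cre control and from 6.30 to 6.88 (median 6.53) in BRAFV600E. The groups did not overlap, and both spread little. Means were 5.71 ± 0.19 and 6.58 ± 0.24 (SD, n = 6 each), a difference of 0.87 (SE 0.14, 95% confidence interval 0.56 to 1.18, limma adjusted p 0.00291). Without BRAFV600E replicate 2, again the highest array, the difference was 0.81 (limma adjusted p 0.00641).

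Krt19, the shortest type I keratin, which lacks a tail domain, spanned 5.87 to 6.37 (median 6.18) in Cre control and 6.89 to 7.39 (median 7.12) in BRAFV600E. Every BRAFV600E array was above every Cre control array. Means were 6.18 ± 0.18 and 7.12 ± 0.17 (SD, n = 6 each), a difference of 0.94 (SE 0.13, 95% confidence interval 0.67 to 1.22, limma adjusted p 8.79e-04), and 0.89 without BRAFV600E replicate 2 (limma adjusted p 0.00189).

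Krt20, the keratin of differentiated cells of the villus and of surface epithelium, ranged from 7.44 to 7.97 (median 7.89) in Cre control and from 7.38 to 7.99 (median 7.76) in BRAFV600E. The 2 ranges nearly coincided. The difference was -0.11 (SE 0.14, 95% confidence interval -0.41 to 0.19, limma adjusted p 0.652), and -0.04 without BRAFV600E replicate 2, which was the lowest array. Its sign turned with the scaling, to 0.25 after quantile normalization (limma adjusted p 0.157) and 0.06 after cyclic loess. Without scaling Krt20 differed by 0.70, below the median of 0.79 over all genes in that setting.

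Krt23, an inducible type I keratin of glandular epithelia, ranged from 0.34 to 1.07 (median 0.87) in Cre control and from 1.74 to 3.97 (median 2.05) in BRAFV600E. The groups did not overlap, but the BRAFV600E arrays were spread far more widely. Means were 0.80 ± 0.26 and 2.38 ± 0.84 (SD, n = 6 each), a difference of 1.59 (SE 0.33, 95% confidence interval 0.87 to 2.31, limma adjusted p 0.0107). BRAFV600E replicate 2 at 3.97 accounted for much of the spread. Without it the BRAFV600E mean was 2.07 ± 0.37, and the difference of 1.27 (SE 0.19) had a limma adjusted p of 0.00264.

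**Figure D2:**
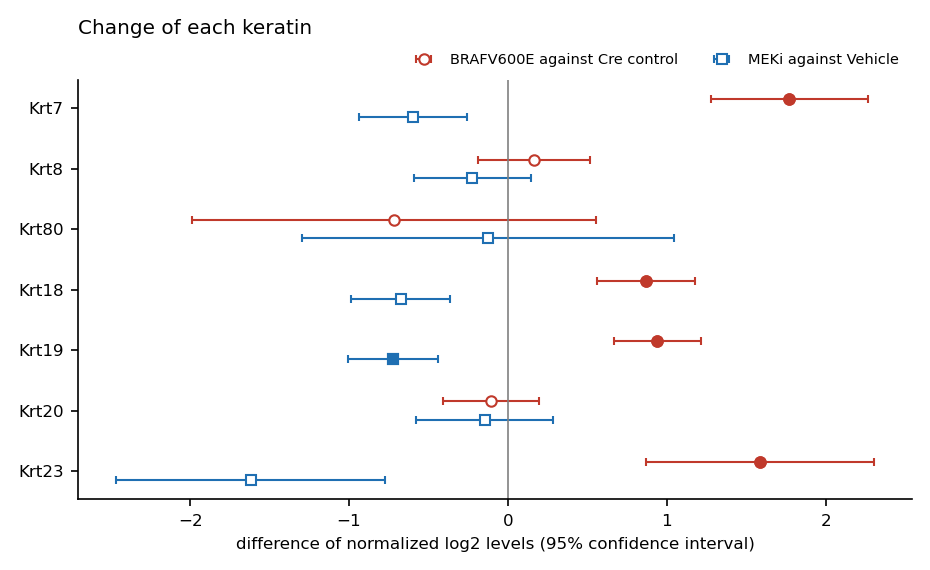
Difference between group means of normalized log2 levels (horizontal axis) for each keratin in BRAFV600E against Cre control (red circles) and MEKi against Vehicle (blue squares), with 95% confidence intervals from limma; filled symbols passed an adjusted p of 0.05. Krt7, Krt18, Krt19 and Krt23 lie right of 0 in red and left of 0 in blue, and the intervals of Krt8, Krt20 and Krt80 include 0 in both.

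Slide moved with genotype, since all Cre control arrays were on slide 1. Within that slide, with only BRAFV600E replicates 1 and 2, the differences were 2.0 for Krt7 (limma adjusted p 0.0263), 0.96 for Krt18 (limma adjusted p 0.0419), 0.97 for Krt19 (limma adjusted p 0.0437) and 2.09 for Krt23 (limma adjusted p 0.0528). Krt8 was at -0.06 there and Krt20 at -0.36, neither called. With slide as a block the same 4 keratins were called. This is not a separate check, since slide 2 held no Cre control array. The blocked fit takes the differences from slide 1 alone, and slide 2 adds only to the estimate of spread. Replicate 2, which stands apart in position markers, is 1 of the 2 BRAFV600E arrays on slide 1. The other, replicate 1, had the highest Cybrd1 (-0.31) and the lowest Osr2 (-0.83) of the 18 remaining arrays. Its Tff2 level of -4.94 was not the highest of these. The part of gut position in the differences within this slide was not tested.

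The 75th percentile of the signal was itself 525 to 1238 in Cre control and 852 to 1518 in BRAFV600E, and without scaling the median difference of all genes was 0.79. Changes also varied with brightness. Among the 220 genes with a mean level above 7, the band that holds Krt8 and Krt20, the median difference was -0.33, with 3 called higher and 38 lower. It was 0.01 in the band from 5 to 7, which holds Krt18 and Krt19, and 0.09 in the band from 0 to 2, which holds Krt7 and Krt23. What brightness contributes to the values of Krt8 and Krt20 was not tested.

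**Figure D3:**
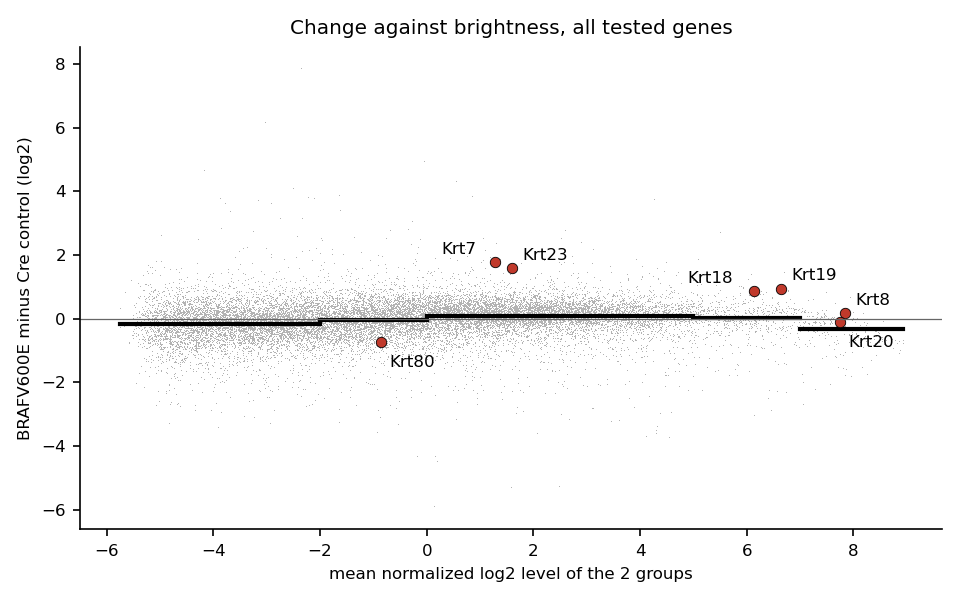
Difference between BRAFV600E and Cre control on the log2 scale (vertical axis) against the mean normalized log2 level of both groups (horizontal axis) for the 19041 genes tested (grey), with the median of each brightness band as a black line and the 7 keratins in red. The black line drops to -0.33 above a level of 7, where Krt8 at 0.17 and Krt20 at -0.11 lie.

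Since keratins 8 and 18 pair, the difference between the Krt8 and Krt18 probes was taken on each array. It ranged from 1.85 to 2.37 in Cre control with a mean of 2.06 ± 0.18, and from 0.84 to 1.70 in BRAFV600E with a mean of 1.35 ± 0.30 (SD, n = 6 each). The groups did not overlap. The shift of -0.70, or 1.63-fold toward Krt18, had an exact permutation p of 0.00216, two-sided, the smallest that 924 regroupings allow. It was -0.80 with the second Krt8 probe, -1.03 within slide 1 and -0.60 without BRAFV600E replicate 2. After quantile normalization it shrank to -0.23 with an exact permutation p of 0.171, while cyclic loess left -0.59 with an exact permutation p of 0.00216. The median difference of all genes was -0.33 in the brightness band of Krt8 and 0.01 in that of Krt18. What brightness contributes to the shift, and why these settings differ, was not tested.

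**Figure D4:**
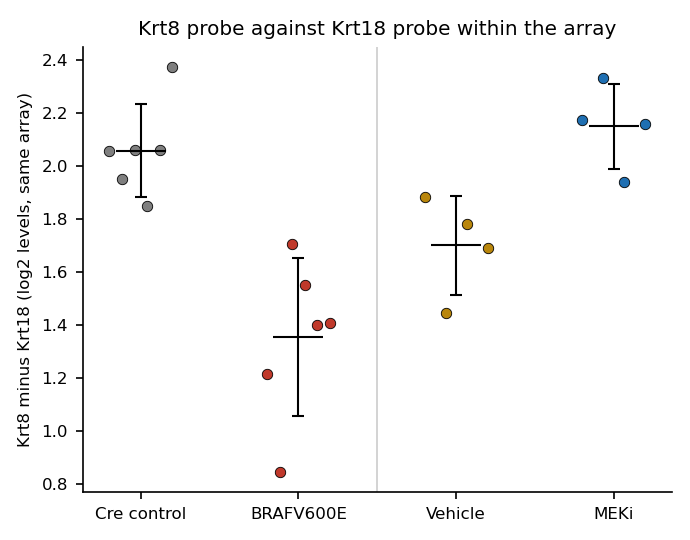
Krt8 level minus Krt18 level on the same array (vertical axis, log2) for each of the 20 arrays by group, with the mean and SD. BRAFV600E arrays at 0.84 to 1.70 lie below the Cre control arrays, and MEKi arrays at 1.94 to 2.33 lie above the Vehicle arrays.

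Under MEKi all 7 keratins had lower means than under Vehicle, where 54.6% of all genes tested had higher means. The median difference of the keratins was -0.60 on the log2 scale against 0.04 over all genes. Only Krt19 was called, that is 1 of 7 lower and 0 higher, where 1.98% of the 19231 genes tested were called, 0.884% lower and 1.09% higher. Krt7, Krt18, Krt19 and Krt23, the keratins that rose in BRAFV600E, had all MEKi arrays below all Vehicle arrays, which held for 5.76% of genes tested. The same 4 had an unadjusted limma p under 0.05, as did 16.4% of genes tested. The MEKi and Vehicle arrays shared no sample with the other comparison.

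Krt19 stood at 7.61, 7.81, 7.73 and 7.56 in Vehicle and at 6.92, 7.12, 6.77 and 7.00 under MEKi. The gap between the groups was wider than the spread within either. Means were 7.68 ± 0.11 and 6.95 ± 0.14 (SD, n = 4 each), a fall of 1.65-fold, with a difference of -0.72 (SE 0.12, 95% confidence interval -1.01 to -0.44, limma adjusted p 0.0297). The call rested on the full set of 8 arrays. Without Vehicle replicate 2 the difference was -0.68 with a limma adjusted p of 0.0553, and the call held in 1 of the 8 fits without 1 array.

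Krt18 stood at 6.50, 6.76, 6.74 and 6.33 in Vehicle and at 6.03, 5.86, 5.82 and 5.93 under MEKi. All 4 MEKi arrays were lower and lay close together. The difference of -0.67 (SE 0.14, 95% confidence interval -0.99 to -0.36) had a limma adjusted p of 0.0504. It was -0.62 without Vehicle replicate 2 (limma adjusted p 0.0877).

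Krt23 stood at 1.60, 3.11, 1.64 and 1.73 in Vehicle and at 0.25, 0.99, 0.12 and 0.23 under MEKi. Replicate 2 was the highest array in both groups. The difference was -1.62 (SE 0.37, 95% confidence interval -2.47 to -0.77, limma adjusted p 0.0744), a 3.07-fold lower mean. Without Vehicle replicate 2, the array with the pancreas transcripts, it was -1.25 (SE 0.22) and passed the test (limma adjusted p 0.0416).

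Krt7 stood at 2.47, 2.42, 2.38 and 2.87 in Vehicle and at 1.87, 1.93, 2.12 and 1.82 under MEKi. All 4 MEKi arrays were the lower ones. The difference of -0.60 (SE 0.15, 95% confidence interval -0.94 to -0.26) was not called (limma adjusted p 0.0923), nor was the -0.64 without Vehicle replicate 2 (limma adjusted p 0.106).

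Krt8 stood at 8.38, 8.20, 8.52 and 8.02 in Vehicle and at 8.20, 8.19, 7.76 and 8.09 under MEKi, with overlap, and the difference was -0.22 (SE 0.16, limma adjusted p 0.560). Krt20 stood at 8.00, 7.51, 8.20 and 7.63 in Vehicle and at 7.66, 7.98, 7.50 and 7.61 under MEKi, also with overlap. Its difference was -0.15 (SE 0.19, 95% confidence interval -0.58 to 0.29, limma adjusted p 0.772). Krt80 differed by -0.12 (SE 0.51, limma adjusted p 0.938), with replicate 2 of each group, at -1.37 and -1.08, more than 1 log2 unit above the rest of its group. Without Vehicle replicate 2 the differences were -0.25 for Krt8, -0.26 for Krt20 and, with the sign turned, 0.20 for Krt80, none called.

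The Krt8 minus Krt18 difference within the array was 1.88, 1.45, 1.78 and 1.69 in Vehicle and 2.17, 2.33, 1.94 and 2.16 under MEKi. The groups did not overlap, and MEKi was the higher. The shift of 0.45 had an exact permutation p of 0.0286, two-sided, the smallest that 70 regroupings allow. It kept its sign and this p after quantile normalization (0.30) and cyclic loess (0.43). The median difference of the 237 genes with a level above 7 was 0.04 in this comparison. Without Vehicle replicate 2 it was 0.37, with an exact permutation p of 0.0571.

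Keratin partners, the desmosome proteins and plakin cytolinkers that anchor keratin filaments, were counted next to the keratins. In BRAFV600E 7 of 12 were called higher and 0 lower, where 6.19% of all genes tested were called higher and 6.27% lower. The median difference of the 12 was 0.56 on the log2 scale against -0.02 over all genes. Perp, a desmosome membrane protein, rose by 0.57 (SE 0.11, limma adjusted p 0.00822), and Dst, the plakin dystonin, by 0.55 (SE 0.12, limma adjusted p 0.0133). Pkp3, a plakophilin of the desmosome plaque, rose by 0.72 and Dsg2, the desmoglein of simple epithelia, by 0.69, each with a limma adjusted p of 0.0134. Eppk1, epiplakin, which binds keratins, was the 1 partner with a lower mean, at -0.47 (limma adjusted p 0.0583). The count was 5 without BRAFV600E replicate 2, 1 with slide as a block, 0 within slide 1 and 1 higher with 1 lower when arrays were centred on the epithelial reference genes. The list median was 0.38 with that centring and 0.50 within slide 1.

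Under MEKi 0 of 12 partners were called lower and 1 higher, where 0.884% of all genes tested were called lower and 1.09% higher. The median of the partners was -0.38 against 0.04 over all genes. The called gene was Eppk1, which rose by 0.62 (SE 0.10, limma adjusted p 0.0289). At an unadjusted limma p under 0.05 the counts were 7 lower and 1 higher, the lower ones including Ppl, periplakin, at -0.97 (limma adjusted p 0.0979). Without Vehicle replicate 2, 1 partner was called lower and 0 higher.

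**Figure D5:**
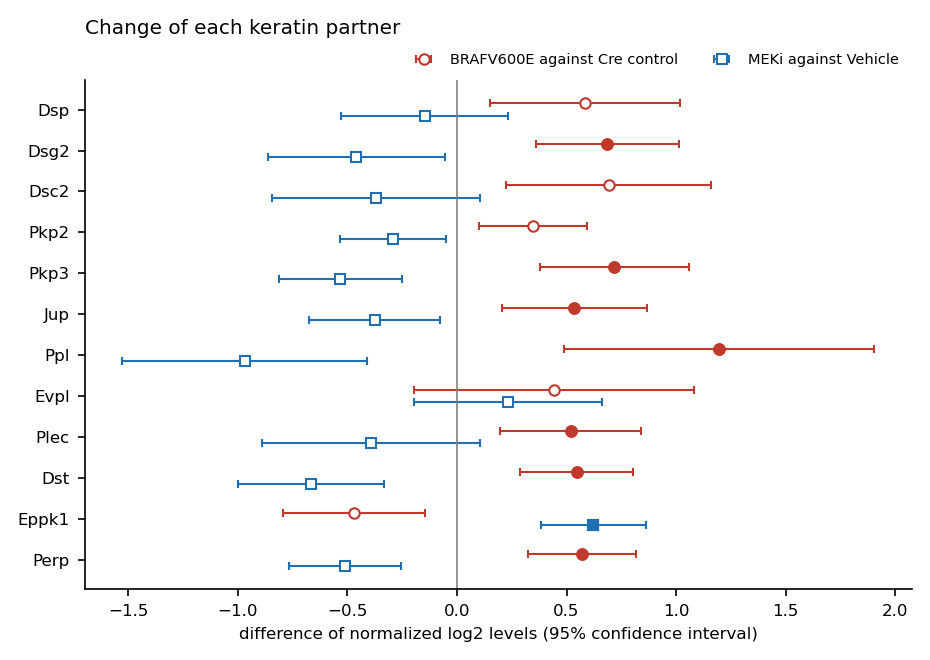
Difference between group means of normalized log2 levels (horizontal axis) for the 12 keratin partners in BRAFV600E against Cre control (red circles) and MEKi against Vehicle (blue squares), with 95% confidence intervals from limma; filled symbols passed an adjusted p of 0.05. In red 11 of 12 lie right of 0, and Eppk1 lies on the opposite side of most other partners in both comparisons.

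The other keratins did not move as a body. Of 47 further keratin genes on the array 31 were tested in BRAFV600E, and 3 were called higher and 1 lower, with a median of -0.01. Over all genes tested 6.19% were called higher and 6.27% lower, so these counts are only a description. Krt17 and Krt42, closely related type I keratins that may share signal, rose by 0.89 (limma adjusted p 0.0363) and 0.70 (limma adjusted p 0.029). Krt81, a hair keratin with near-identical relatives, rose by 0.93 (limma adjusted p 0.00379), and the hair keratin Krt31 fell by 1.30 (limma adjusted p 0.00199). Within slide 1, 0 of the 31 were called. Under MEKi 34 were tested and Krt42 alone was called, lower by a difference of -0.80 (limma adjusted p 0.0477). Of all genes tested 0.884% were called lower there. Without Vehicle replicate 2, 0 of the 34 were called.

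Non-keratin intermediate filaments split in BRAFV600E, with 2 of 11 called higher and 2 lower. The shares over all genes tested were 6.19% higher and 6.27% lower. Lmna, the nuclear lamin A/C, rose by 1.31 (limma adjusted p 0.00116), and Des, desmin of muscle, rose by 0.94 (limma adjusted p 0.0144). The neuronal filaments Nefm and Prph fell by 0.93 (limma adjusted p 0.0072) and 0.88 (limma adjusted p 0.0202). The counts were 1 higher and 1 lower when slide was a block, and 0 of either within slide 1. Under MEKi 0 of 12 were called, and 3 had an unadjusted limma p under 0.05, 2 higher and 1 lower.

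Of the epithelial reference genes only Cdh1, E-cadherin, was called in BRAFV600E, 1 of 6, with a rise of 0.61 (limma adjusted p 0.0178), and the list median was 0.17 against 0.87 for the keratins. Among all genes tested 6.19% were called higher in BRAFV600E. With slide as a block or within slide 1, 0 of 6 were called and the list median turned to -0.21. Under MEKi 0 of 6 were called, none at an unadjusted limma p under 0.05 either, with a median of -0.06. Among villus tip genes Ada, adenosine deaminase, and Nt5e, an ectonucleotidase, rose in BRAFV600E by 1.44 (limma adjusted p 0.0107) and 1.95 (limma adjusted p 0.0313), 2 of 7, but 0 of 7 were called with slide as a block or within slide 1. Under MEKi 0 of 7 were called, 5 were lower at an unadjusted limma p under 0.05, and 1 was called lower without Vehicle replicate 2.

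Other epithelia that carry these keratins were checked through their markers. For mesothelium 0 of 6 tested genes were called in BRAFV600E, and the summed linear level of its list was 0.586 to 1.58 against 1.02 to 2.87 in Cre control. For exocrine pancreas 0 of 6 were called, with sums of 1.06 to 1.32 against 1.15 to 1.71. For stratified squamous epithelium 0 of 4 were called, with sums of 3.71 to 8.09 against 6.84 to 9.22. At an unadjusted limma p under 0.05 each of these 3 lists had 1 gene lower and 0 higher. The stomach list had 0 of 6 called, 0 also at an unadjusted limma p under 0.05, and a sum of 115 in BRAFV600E replicate 2, against 0.655 to 0.912 in Cre control. Of the urothelium list 1 of 2 was called, lower. In smooth muscle, a part of the wall with no Cre, 2 of 8 were called higher, Actg2 at 0.71 and Des. Beside these counts, 6.19% of all genes tested were called higher and 6.27% lower. Under MEKi 0 genes of the mesothelium, smooth muscle, exocrine pancreas and stomach lists were called, and 0 had an unadjusted limma p under 0.05. The urothelium and squamous lists had 0 called and 1 gene each higher at an unadjusted limma p under 0.05. Summed levels under MEKi were 1.24 to 3.07 against 0.811 to 2.64 in Vehicle for mesothelium, and 87.4 to 178 against 36.9 to 136 for smooth muscle.

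Position markers and T cell genes were counted beside the keratins. Of 5 proximal small intestine genes 1 was called higher in BRAFV600E and 0 lower, with a median difference of 0.56, the called gene being Gata4, a transcription factor of the proximal gut, at 0.49 (limma adjusted p 0.0334). Lct, lactase, the brightest of the 5 in Cre control, differed by -2.89 and was not called (limma adjusted p 0.159). BRAFV600E replicate 2 stood at -2.23 for Lct, the other BRAFV600E arrays at 5.49 to 7.12 and Cre control at 7.41 to 8.30. The wide spread thus rested largely on replicate 2, which also enlarged the difference. The other BRAFV600E arrays lay below all Cre control arrays as well. The summed level of the list was 69.6 to 155 in BRAFV600E against 184 to 326 in Cre control. Of 5 distal small intestine genes 1 was called lower and 0 higher, with a median of -1.08, the called gene being Slc51a, a bile acid transporter subunit, at -1.27 (limma adjusted p 0.0189), fitted without BRAFV600E replicate 6, where its spot was dropped. Of 7 T lymphoid genes 3 were called lower and 0 higher, with sums of 5.15 to 15.3 against 7.65 to 45.2. Over all genes tested in BRAFV600E 6.19% were called higher and 6.27% lower. Under MEKi 0 genes of these 3 lists were called, and at an unadjusted limma p under 0.05 the T lymphoid list had 5 higher, the distal list 1 lower and the proximal list 0. The part of any of these tissues or of gut position in the keratin differences was not tested, beyond the values without the array concerned.

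The genes whose level was most like that of each called keratin over the 12 BRAFV600E and Cre control arrays were, for Krt7, Cmas, which activates sialic acid (Pearson r 0.976), and Mboat1, an acyltransferase (0.965). For Krt18 the tetraspanin Tspan1 (0.967) is given, and for Krt19 the tetraspanin Tspan8 and the ribosome factor Efl1 (0.969 each). For Krt23 they were the transporter Abcc5 and the serpin Serpinb5 (0.971 each). These are the highest values among the genes tested, over arrays of 2 groups that differ, and are a description. Rank correlations (Spearman) of the same genes were lower, from 0.853 for Mboat1 to 0.965 for Abcc5. All of these values include BRAFV600E replicate 2. The group differences of these 7 genes ran from 0.67 for Cmas to 4.30 for Mboat1.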

How the data were processed

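The authors hybridised RNA to Agilent SurePrint G3 Mouse arrays and, per the file headers and the submitters' processing notes, extracted intensity per spot with Agilent Feature Extraction 10.5.1.1. The deposited intensity is linear, background-subtracted and not normalized between arrays. The deposited 0 or 1 marks (well above background, outlier), of another kind than an intensity, were used as filters. Control and outlier spots were dropped, log2 was taken, the 75th percentile of each array subtracted, and the copies of a probe averaged. Probes were named through RefSeq genes (GRCm38.p6): 34023 by accession, 9993 by symbol, 318 by synonym, with 12271 unnamed. Each gene was represented by its brightest probe, taken across all arrays. Genes well above background on at least 6 of 12 or 4 of 8 arrays were tested with limma 3.58.1 (R 4.3.3), each comparison on its own arrays, two-sided, with Benjamini-Hochberg adjustment across all genes tested and calls below 0.05. Code was tested on simulated data. Nothing in the labels says how samples were pooled or bred, so p-values measure the spread between these samples.

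Per the file headers, the probes used lie on chromosome 15 at 101253718 to 101253777 (Krt7), 101827214 to 101827273 (Krt8), 101862341 to 101862400 (Krt18) and 101180014 to 101180073 (Krt80), and on chromosome 11 at 100002392 to 100002451 (Krt19), 99289776 to 99289835 (Krt20) and 99339393 to 99339452 (Krt23), in a build the header does not name. Exon or UTR position was not analysed here. Named were the 7 keratins, called genes among other keratins, up to 4 called genes of 4 lists per comparison by adjusted p, and the 2 most correlated genes of each keratin called in BRAFV600E, 1 of which is not reported here. Eppk1, Ppl, Actg2, Gata4, Slc51a and the position markers were named after their values were seen. Members and lists were chosen with earlier results of these data known. The labels' treatment text describes an experiment that matches no group and was not used. Array number limits precision.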

Additional observations from a re-analysis of the deposited data

Results flagged for a closer look

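In 32 groups of keratin levels and Krt8 minus Krt18 differences, 4 held an array far from the rest by Dixon's test, which chance gives in about 1 of 20 groups. Krt7 was highest at 3.03 in BRAFV600E replicate 2 (next array 2.18) and at 2.87 in Vehicle replicate 4 (next array 2.47). Krt23 was highest at 3.11 in Vehicle replicate 2 (next array 1.73) and at 0.99 in MEKi replicate 2 (next array 0.25).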

How the results depend on the processing

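In BRAFV600E Krt7, Krt18 and Krt19 were called in all 26 alternatives and Krt23 in 25, all in the same direction. Among these, slide as a block and within slide 1 rest on the same differences. The Krt8 difference became -0.0130 centred on the epithelial reference genes, and -0.0630 with slide as a block or within slide 1. Krt20 became 0.25 with quantile normalization, 0.70 without scaling and 0.0588 with cyclic loess, and Krt80 0.0881 without scaling. Without scaling the median of all genes was 0.79, and both Krt20 and Krt80 lay below it. Genes called numbered 4368 with normexp, 9337 without scaling, 3591 with every probe tested, 1533 with slide as a block, 734 within slide 1 and 1441 to 2863 without 1 array, lowest without Cre control replicate 3 and next 1525 without Cre control replicate 2, against 2372. Krt8 minus Krt18 was -0.23 with quantile normalization.

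Under MEKi the lower means of Krt7, Krt18, Krt19 and Krt23 held in all 20 alternatives, but calls did not: Krt19 was called in 8, Krt18 in 6, Krt23 in 3 and Krt7 in 1. Keratins called numbered 2 with quantile normalization, normexp, cyclic loess or the stricter filter, 3 with all 20 arrays in 1 fit, 4 with array weights, 0 without scaling, with the epithelial reference genes, without a filter, with every probe or with the Y-linked covariate, and 0 to 1 without 1 array. The covariate is the mean level of Y-linked genes, which differs between the sexes. With it the median was -0.48 for the keratins and -0.26 for the epithelial reference genes. How the sexes were spread between MEKi and Vehicle was not analysed. Genes called numbered 72 without scaling, 234 without a filter, 1135 with array weights, 53 with the covariate and 76 to 376 without 1 array, against 380; of the 8 arrays, only leaving out MEKi replicate 2 (376) or Vehicle replicate 2 (345) kept the count within 1.5 times. Krt80 became 0.11 with the covariate, and 0.02, 0.10 and 0.20 without MEKi replicate 1, MEKi replicate 3 and Vehicle replicate 2, in a range of -0.59 to 0.20 without 1 array. Krt8 minus Krt18 was 0.37 to 0.52 without 1 array, with an exact permutation p of 0.0571 in 4 of 8. Cyclic loess, the second Krt8 probe and both brightness-dependent scalings of Krt8 minus Krt18 were chosen after seeing the data. No paired analysis was possible because the replicate numbers follow the order of the samples and pair no mice.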
